A study of Homo sapiens with 8 samples.

Results

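The 6 genes described here, KMT2A, KMT2B, KMT2C, KMT2D, SETD1A and SETD1B, encode the human H3K4 methyltransferases of the SET1/MLL family. H3K4me3, histone H3 trimethylated at lysine 4, was mapped by chromatin immunoprecipitation and sequencing in MM1S, an established human multiple myeloma line. The tested cells received 50 uM KDM5-C70, an inhibitor of the KDM5 demethylases, for 7 days (3 libraries), and the control cells received DMSO, its vehicle, with no duration given in the labels (5 libraries). All 8 libraries came from this 1 line, and the labels do not say whether they came from separate cultures, so p-values measure the spread between these libraries, which may be technical. Each gene was taken as the window of 5 kb on either side of a given GRCh37 start site, and all 6 windows held called sequence in all 8 libraries. They were set against windows of the same size centred on the 13729 merged regions called in all 8 libraries, of 50523 merged regions in all, which makes 13735 windows in the comparison.

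Methylation of this residue is written by enzymes that share a core of WDR5, RBBP5, ASH2L and DPY30 and differ in their catalytic subunit. SETD1A and SETD1B are the catalytic subunits of the SET1 complexes, which place most H3K4me3 at active promoters. KMT2A and KMT2B methylate a smaller set of promoters, among them developmental genes, and bind unmethylated CG dinucleotides through a CXXC domain. KMT2C and KMT2D mainly place monomethylation at enhancers. KDM5 enzymes remove the methyl groups from the same residue, so the mark at these promoters lies at the genes of the opposing enzymes. No value is given for the core subunits or for plasma cell markers, because no GRCh37 position was used for genes other than these 6.

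The promoters of 3 of the genes on which the results turn are shown as the 250 bases upstream of the RefSeq start, 5′ to 3′, with CG dinucleotides in capitals, since methylated H3K4 is typically found over CG-rich promoters. The sequences are those of RefSeq on GRCh38.p14, a different build from that of the region lists, and their starts were not matched to the GRCh37 start sites. KMT2A is at chr11:118436242-118436491, KMT2B at chr19:35717753-35718002 and SETD1A at chr16:30957504-30957753, all on the plus strand.
KMT2A: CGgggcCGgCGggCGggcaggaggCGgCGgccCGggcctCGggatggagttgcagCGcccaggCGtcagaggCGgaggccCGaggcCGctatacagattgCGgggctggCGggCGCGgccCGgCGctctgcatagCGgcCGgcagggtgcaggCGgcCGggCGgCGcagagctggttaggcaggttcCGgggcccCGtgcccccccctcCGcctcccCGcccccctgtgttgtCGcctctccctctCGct
KMT2B: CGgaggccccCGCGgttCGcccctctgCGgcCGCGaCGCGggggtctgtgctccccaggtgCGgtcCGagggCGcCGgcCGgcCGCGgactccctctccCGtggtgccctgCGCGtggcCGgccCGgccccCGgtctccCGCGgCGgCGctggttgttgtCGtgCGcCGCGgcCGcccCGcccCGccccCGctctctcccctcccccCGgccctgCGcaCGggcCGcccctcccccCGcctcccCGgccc
SETD1A: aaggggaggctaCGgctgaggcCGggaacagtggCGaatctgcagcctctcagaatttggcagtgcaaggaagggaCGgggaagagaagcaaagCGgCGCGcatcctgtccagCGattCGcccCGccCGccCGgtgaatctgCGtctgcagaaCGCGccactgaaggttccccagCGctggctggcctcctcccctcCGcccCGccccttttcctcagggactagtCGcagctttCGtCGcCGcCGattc
The KMT2B stretch held 40 CG dinucleotides, more than 97.8% of 35116 RefSeq promoter stretches of the same length, whose median was 11. KMT2A held 31 (above 89.1% of them) and SETD1A held 23 (above 74.2%). Of the other genes matched, KMT2C held 48 (above 99.7%) and KMT2D held 23, so that all 5 genes matched in the table lay above the median. The motif GGGCGG, searched on both strands and overlapping the CG count, was present in all 5, as in 42.6% of all these stretches. TATAAA on either strand was present in none of the 5 and in 10.7% of all.

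Libraries fell into sets that do not follow the treatment. KDM5-C70 1 with DMSO 1 and 2 formed 1 set, and KDM5-C70 2 and 3 with DMSO 3, 4 and 5 the other, with a Jaccard index of called bases of at least 0.56 within sets and at most 0.543 between them. These sets were recognised from the data, and differences within them are given in that order, the set with KDM5-C70 1 before the other. KDM5-C70 lists held 17977 to 37948 regions, and DMSO lists 15323 to 32376. By set, the lists held 15323 to 20998 regions in the set with KDM5-C70 1 and 28195 to 37948 in the other. The sets therefore cannot be told apart from list length. Sequencing depth is unknown, so sequence outside a called region may still carry the mark. Inner segments, the blocks that the authors' lists mark inside a called region, took a smaller share of called bases with KDM5-C70 across all windows, with library medians of 66.4, 73.8 and 69.7% in KDM5-C70 and of 80.1, 77.2, 87.4, 83.7 and 85.4% in DMSO libraries 1 to 5.

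**Figure D1:**
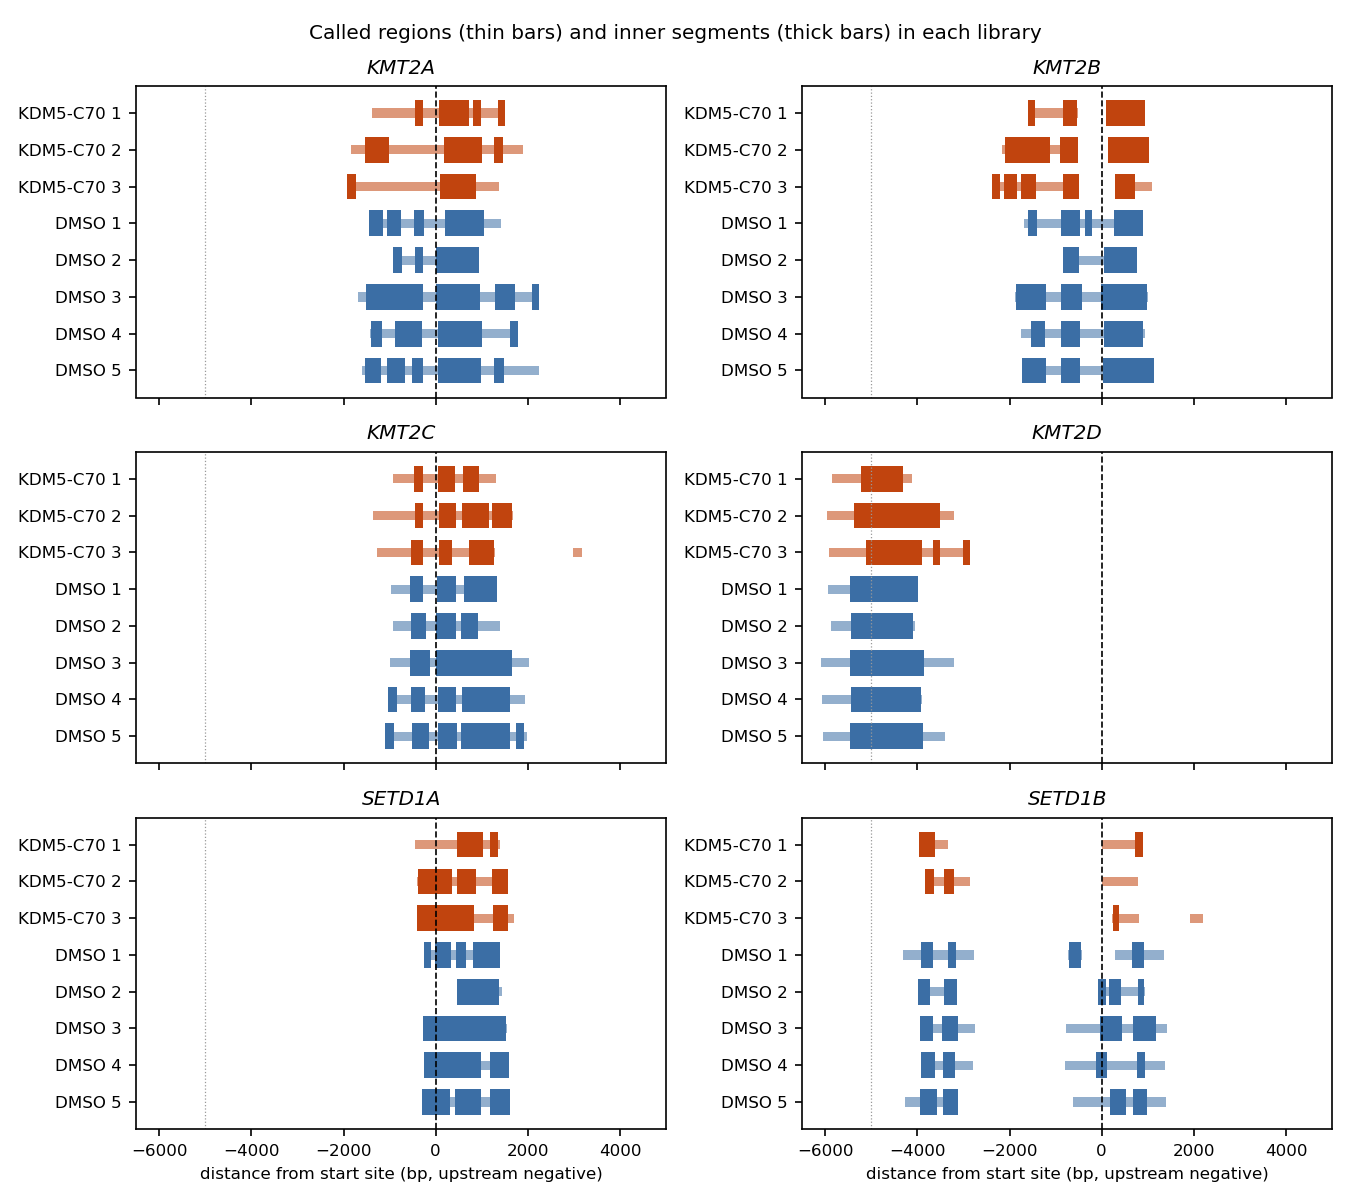
Called regions (thin bars) and inner segments (thick bars) of each library around the 6 start sites, by distance from the start site in bp with upstream negative (dashed line, the start site; dotted line, the upstream edge of the window; KDM5-C70 in orange above DMSO in blue). The KMT2B start site lies in a gap between called regions in all 3 KDM5-C70 libraries, the SETD1B region at the start site is shorter in all 3, and the KMT2D region lies wholly upstream of the start site given.

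SETD1B had less called and less inner sequence in every KDM5-C70 library than in any DMSO library. Called bases in its window were 1512, 1761 and 844 in KDM5-C70 libraries 1 to 3, against 2912, 1860, 3382, 3291 and 3177 in DMSO libraries 1 to 5. The groups did not overlap, although KDM5-C70 2 and DMSO 2 lay close together. KDM5-C70 libraries averaged 1372 ± 474.2 bp (SD, n = 3), against 2924 ± 620.6 bp (SD, n = 5) in DMSO libraries. On the log2 scale with 100 bp added, the difference was -1.07 (SE 0.26). The limma p was 0.00221 before and 0.998 after Benjamini-Hochberg adjustment over all windows, so the difference did not pass the threshold of 0.05. In all windows the median difference was 0.13, and 0.466% of windows lay below DMSO in every KDM5-C70 library. Within the sets the SETD1B difference was -0.59 and -1.35. It was -2.38 with lists of equal length and -0.60 in a window of 10 kb on either side. Lists of equal length kept the widest regions of each library. Narrow pieces could thus drop out through the width being measured, so -2.38 does not show what list length contributes.

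Inner bases at SETD1B differed further. They were 501, 408 and 146 bp in KDM5-C70 libraries 1 to 3, against 930, 1093, 1612, 960 and 1348 bp in DMSO libraries 1 to 5. Again no KDM5-C70 library reached the lowest DMSO library, in a measure where 2.13% of all windows separated in that direction. The difference was -1.58 (SE 0.35) on the same log2 scale, beside a median of -0.07 over all windows, and it did not pass either (limma adjusted p = 0.46). It was -0.88 and -1.97 within the sets, and -0.88 in a window of 10 kb on either side. With the set of libraries as a term the 5 kb window passed (limma adjusted p = 0.047), as did 195 of all windows in this direction (1.42%), and also once the libraries were centred in that fit (limma adjusted p = 0.0492, with 1.34% of windows). In the first of these fits the adjusted p lay above 0.05 without KDM5-C70 1 (0.0563), KDM5-C70 3 (0.0902), DMSO 1 (0.0703), DMSO 3 (0.164), DMSO 4 (0.0937) or DMSO 5 (0.135), so the call was lost without any 1 of these 6 libraries. The sets were themselves drawn from the called bases of these lists, so adjusted p-values with the set term may be too small.

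In every library but KDM5-C70 3, the called sequence at SETD1B lay over or next to the start site on chromosome 12 (122242086) and in a separate piece about 3 to 4 kb upstream. KDM5-C70 3 had no upstream piece, and its 844 called bases included a piece of 267 bp that lay 1922 to 2188 bp downstream. At the start site the merged region ran from 122241297 to 122243504 and held 891, 782 and 577 called bases in KDM5-C70 libraries, against 1369, 1025, 2195, 2157 and 2018 in DMSO libraries. These bases are part of the called bases of the window given above, so they are not a separate result. The groups did not overlap, but the share of all merged regions that separate in this way was not counted. The start site given was called in 0 of 3 KDM5-C70 libraries and in 4 of 5 DMSO libraries, all but DMSO 1, where it fell in a gap of 720 bp. No RefSeq promoter was matched for SETD1B, so coverage and distances hold only for the start site given. In KDM5-C70 libraries the region began 15, 10 and 232 bp downstream of the start site. In DMSO 2, 3, 4 and 5 it began 83, 776, 789 and 619 bp upstream, and DMSO 1 had a piece of 303 bp upstream of the start site and its main piece from 294 bp downstream, so DMSO 1 and 2 lay nearest to the KDM5-C70 libraries. KDM5-C70 2 held no inner segment in this region. The upstream piece was 621 and 979 bp wide in KDM5-C70 1 and 2 and was not called in KDM5-C70 3, against 1543, 835, 1187, 1134 and 1159 bp in DMSO libraries, so these widths overlapped between the groups. In the RefSeq table of GRCh38.p14 the noncoding gene LINC01089 lies inside the span of SETD1B, so marked sequence in this window cannot be assigned to 1 of the genes.

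SETD1A, the other SET1 subunit, differed from SETD1B in its called sequence. Its called bases were 1832, 1963 and 2089 in KDM5-C70 libraries, against 1644, 989, 1826, 1845 and 1918 in DMSO libraries. These values overlapped, and only DMSO 2 lay far from the rest. KDM5-C70 libraries averaged 1961 ± 128.5 bp (SD, n = 3), against 1644 ± 380 bp (SD, n = 5) in DMSO libraries, a log2 difference of 0.27 (SE 0.22, limma adjusted p = 0.998). The difference was 0.49 and 0.12 within the sets, 0.12 with libraries centred and 0.11 without DMSO 2. Most of the called sequence lay downstream of the start site on chromosome 16 (30968615). It held 1387 to 1689 bp downstream in KDM5-C70 libraries and 989 to 1617 bp in DMSO libraries, so these ranges overlapped. Upstream the called sequence reached 444, 397 and 399 bp in KDM5-C70 libraries, against 249, 0, 286, 253 and 300 bp in DMSO libraries. The region therefore reached further upstream of the gene in every KDM5-C70 library. This measure was not tested, and how many of all windows do the same was not counted.

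Inner segments at SETD1A filled a smaller share of the called bases in every KDM5-C70 library. The share was 39.8, 76.1 and 74.5% in KDM5-C70 libraries, against 78.8, 93.8, 99.7, 88.8 and 83.4% in DMSO libraries. The groups did not overlap, but KDM5-C70 2 lay close to DMSO 1. The difference was -25.4 percentage points (SE 10.0), with 63.5 ± 20.5% (SD, n = 3) for KDM5-C70 and 88.9 ± 8.25% (SD, n = 5) for DMSO, and did not pass (limma adjusted p = 0.208). The median over all windows was -10.9 points, and 12.4% of all windows lay below DMSO in every KDM5-C70 library. Within the sets the difference was -46.5 and -15.3 points, the larger value resting on KDM5-C70 1. It was -13.6 points without that library and -12.7 points with libraries centred.

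**Figure D2:**
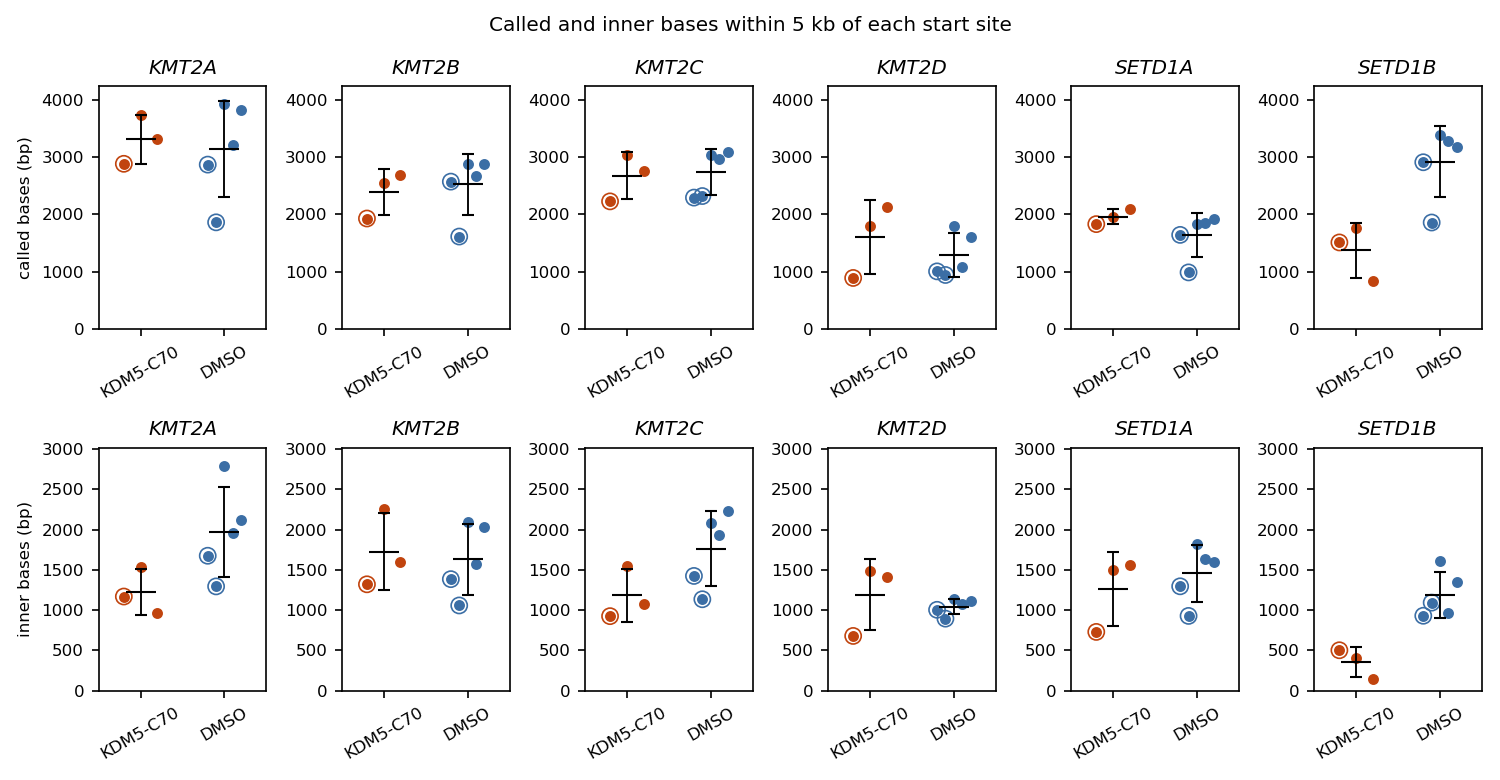
Called bases (top) and inner bases (bottom) in bp within 5 kb of each start site, 1 point per library, with the mean and SD of each group (KDM5-C70, n = 3, left; DMSO, n = 5, right). Circled points are KDM5-C70 1, DMSO 1 and DMSO 2, which overlap more with each other than with the other libraries. SETD1B separates the groups in both rows, with 844 to 1761 called bases in KDM5-C70 libraries, against 1860 to 3382 with DMSO.

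At KMT2B the called region was broken over the start site in KDM5-C70 libraries and whole in DMSO libraries. The merged region lay on chromosome 19 from 36206530 to 36210064, around the start site at 36208921. All 3 KDM5-C70 libraries had 2 called regions there, and all 5 DMSO libraries had 1. The gap ran over the start site and measured 597, 638 and 789 bp in KDM5-C70 libraries 1 to 3. Its upstream edge was nearly the same in each, since the last called base before it was 36208410, 36208410 and 36208423, which is 511, 511 and 498 bp upstream of the start site. Its downstream edge was at 36209008, 36209049 and 36209213. The start site was thus called in 0 of 3 KDM5-C70 libraries and in 5 of 5 DMSO libraries.

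The inner segments of DMSO libraries also left a gap at this place. In DMSO 1, 2, 4 and 5 no inner segment covered the KMT2B start site, and the gap between segments measured 485, 557, 509 and 501 bp. DMSO 3 alone had the start site inside an inner segment. A gap of inner segments was therefore present in both groups, and in KDM5-C70 libraries the called region was open there as well. The nearest widths were 597 bp for the called gap of KDM5-C70 1 and 557 bp for the inner gap of DMSO 2. The distance at which the authors' lists join regions is not known, and its part in the split was not tested. An uncalled start site here therefore does not mean loss of the mark. Of the 13729 regions called in all 8 libraries, 25 (0.182%) were split in every KDM5-C70 library and whole in every DMSO library, and 2 (0.0146%) were the reverse. Both counts stayed the same when only gaps of at least 500 bp were counted. Split regions were more frequent in each KDM5-C70 library, at 3.85, 4.25 and 5.59% of these regions, than in DMSO libraries, at 2.62, 2.44, 1.17, 1.93 and 1.71%. Leaving out KDM5-C70 1, 2 or 3, which leaves fewer libraries to agree, gave 126, 65 and 39 such regions. KMT2B was the 1 gene of the 6 among the 25. The measure was chosen after the lists had been examined and carries no test.

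The amount of called sequence at KMT2B was 1930, 2551 and 2696 bp in KDM5-C70 libraries, against 2574, 1615, 2880, 2678 and 2875 bp in DMSO libraries. The ranges overlapped, with DMSO 2 the lowest of all 8. KDM5-C70 libraries averaged 2392 ± 406.9 bp (SD, n = 3), against 2524 ± 525 bp (SD, n = 5) in DMSO libraries, a log2 difference of -0.06 (SE 0.21, limma adjusted p = 0.998). That value was -0.08 and -0.10 within the sets, but -0.21 with libraries centred and 0.08 without KDM5-C70 1. It was -0.42 with lists of equal length, where the narrow pieces of a split region could drop out. The inner share of KMT2B was 68.4, 88.4 and 59.3% in KDM5-C70 libraries, against 53.8, 65.5, 72.8, 58.8 and 70.8% in DMSO libraries. This made KMT2B the 1 gene of the 6 with a higher mean inner share with KDM5-C70, by 7.71 points (SE 9.39, limma adjusted p = 0.657), whereas the median over all windows was -10.9 points. The KMT2B share difference was 8.79 and 6.40 points within the sets and 20.5 points with libraries centred. Without KDM5-C70 2 it was -0.44 points, so its direction rests on that library.

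KMT2A, the closest relative of KMT2B among the 6, had the largest amount of called sequence, with an average over the 8 libraries above that of 99.7% of all windows. Its called bases were 2885, 3737 and 3316 in KDM5-C70 libraries, against 2871, 1863, 3929, 3208 and 3829 in DMSO libraries. The groups overlapped, with a log2 difference of 0.11 (SE 0.23, limma adjusted p = 0.998) that turned to -0.04 with libraries centred and to -0.06 without DMSO 2. The sets differed in sign, at 0.31 and -0.05. In each library it was a single region that covered the start site on chromosome 11 (118307205), reaching 1377 to 1931 bp upstream in KDM5-C70 libraries, against 922 to 1688 bp with DMSO.

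Within that region inner segments took a smaller share of KMT2A in every KDM5-C70 library. Inner bases were 1169, 1531 and 968 bp in KDM5-C70 libraries, against 1676, 1295, 2798, 1963 and 2122 bp in DMSO libraries. KDM5-C70 2 lay above DMSO 2, so these values overlapped (log2 difference -0.63, SE 0.25, limma adjusted p = 1, with -0.31 and -0.84 within the sets). As a share of called bases they were 40.5, 41.0 and 29.2% in KDM5-C70 libraries, against 58.4, 69.5, 71.2, 61.2 and 55.4% in DMSO libraries. The groups did not overlap and stood further apart than at SETD1A, with 41.0% as the highest KDM5-C70 and 55.4% as the lowest DMSO value. With 36.9 ± 6.67% (SD, n = 3) for KDM5-C70 and 63.1 ± 6.93% (SD, n = 5) for DMSO, the difference was -26.2 percentage points (SE 9.42) and did not pass (limma adjusted p = 0.175). It was -23.4 and -27.5 points within the sets and -13.5 points with libraries centred. Of all windows, 12.3% had a lower difference than this. On the upstream side of the start site, the nearest inner segment ended 267, 1018 and 1737 bp away in KDM5-C70 libraries, against 260 to 289 bp in DMSO libraries, so that DMSO libraries and KDM5-C70 1 shared an upstream segment that KDM5-C70 2 and 3 lacked.

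**Figure D3:**
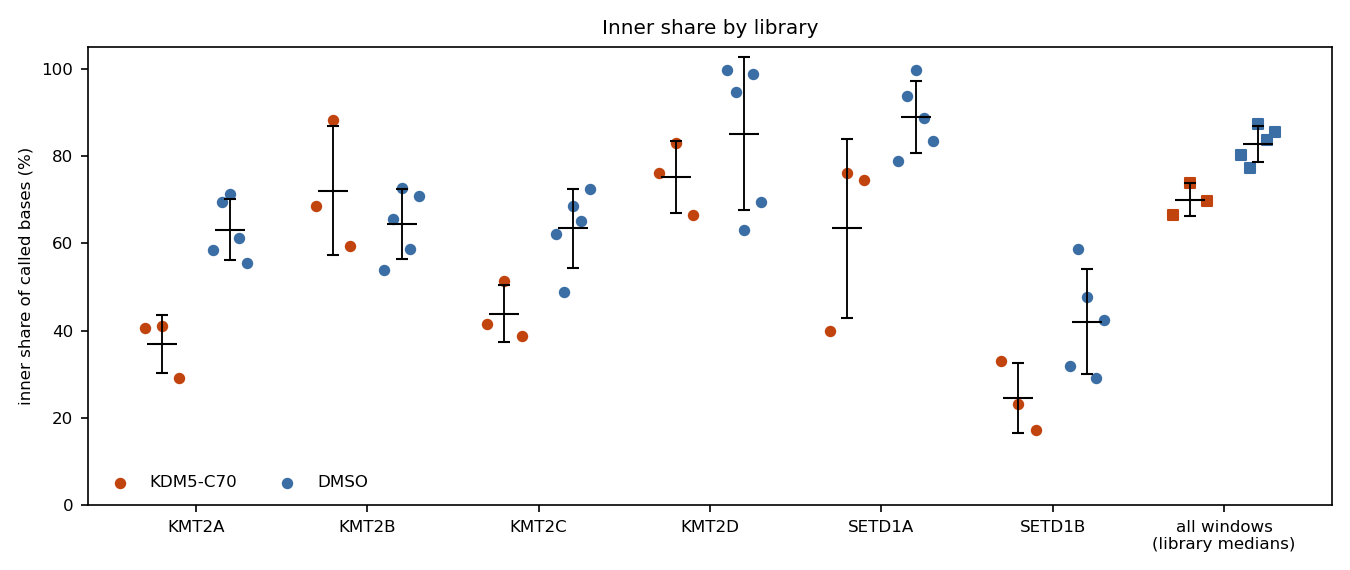
Inner bases as a percentage of called bases in each library (points) with the mean and SD of each group, for the 6 genes and, at the right, the library medians over all windows (squares; KDM5-C70 in orange, n = 3, left of DMSO in blue, n = 5). KMT2A and SETD1A separate the groups, as do the library medians over all windows, and KMT2B has the higher mean with KDM5-C70.

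KMT2C and KMT2D, the enhancer methyltransferases, overlapped between the groups in all 3 measures. At KMT2C called bases were 2229, 3032 and 2762 in KDM5-C70 libraries, against 2295, 2322, 3033, 2977 and 3083 in DMSO libraries. These followed the sets of libraries more than the treatment, with KDM5-C70 1, DMSO 1 and DMSO 2 as the lowest 3. The log2 difference was -0.03 (SE 0.17, limma adjusted p = 0.998), with -0.05 and -0.06 within the sets, -0.18 with libraries centred and 0.09 without KDM5-C70 1. In KDM5-C70 3 the 2762 bases included a separate piece of 196 bp, 2982 to 3177 bp downstream of the start site on chromosome 7 (152133090). Inner bases of KMT2C were 925, 1554 and 1071 bp with KDM5-C70, against 1425, 1135, 2082, 1936 and 2237 bp with DMSO, a log2 difference of -0.53 (SE 0.26, limma adjusted p = 1, with -0.42 and -0.65 within the sets). The inner share was 41.5, 51.3 and 38.8% in KDM5-C70 libraries, against 62.1, 48.9, 68.6, 65.0 and 72.6% in DMSO libraries. Only DMSO 2 lay below the highest KDM5-C70 library, and the difference of -19.6 points (SE 9.44) did not pass (limma adjusted p = 0.28). It was -14.0 and -23.7 points within the sets and -6.81 points with libraries centred. All 8 libraries left the KMT2C start site between inner segments, with gaps of 329, 361 and 348 bp in KDM5-C70 libraries, against 306, 233, 147, 287 and 182 bp in DMSO libraries. Those gaps were wider in every KDM5-C70 library, which was seen after the values were known and was not tested. Such gaps were not measured over all windows, where the inner share was also lower with KDM5-C70.

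At KMT2D no library called the start site given, on chromosome 12 (49449107). The nearest region lay upstream, on this minus-strand gene, from 49451975 to 49455197, which is 2868 to 6090 bp from the start site, so the edge of the window cut through it. Whether another annotation places the KMT2D start inside that region was not examined, so an uncalled start site here does not mean an unmarked promoter. Called bases inside the window were 892, 1793 and 2133 in KDM5-C70 libraries, against 1007, 944, 1802, 1089 and 1601 in DMSO libraries (log2 difference 0.26, SE 0.31, limma adjusted p = 0.998). The sets differed in sign, at -0.12 and 0.39, and the difference was 0.61 without KDM5-C70 1, 0.02 without KDM5-C70 3 and 0.11 with libraries centred. Inner bases of KMT2D also differed in sign between the sets, at -0.43 and 0.36. The whole region held 1752, 2760 and 3063 called bases in KDM5-C70 libraries, against 1953, 1829, 2892, 2160 and 2648 in DMSO libraries. Both sets of values overlapped between the groups. The inner share of the whole region was 76.5, 80.4 and 61.5% with KDM5-C70, against 84.7, 87.6, 73.4, 86.8 and 76.2% with DMSO, a difference of -8.92 points (limma adjusted p = 0.564). No region was called downstream of the start site within 5 kb.

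Across the 6 genes no measure passed the threshold in the fit of treatment alone. In that fit 0% of all windows passed for called bases, inner bases or inner share in either direction. At an unadjusted p under 0.05, 129 windows (0.939%) were higher and 111 (0.808%) lower for called bases. For inner bases the counts were 0 and 516 (3.76%), and for inner share 31 (0.226%) and 2633 (19.2%). The 0 for a lower inner share became 130, 43 and 1 windows without KDM5-C70 1, 2 or 3, none of them a member. By fitted difference, called bases were higher with KDM5-C70 in 3 genes and lower in 3, with a median of 0.04 in the 6 and 0.13 in all windows, though KMT2A changed sides with libraries centred, and KMT2B and KMT2C did with the replicate block. Inner bases were lower in 4 of 6, with a median of -0.38 in the 6 and -0.07 in all windows, and KMT2B and KMT2D, the other genes, changed sides with other windows. The inner share was lower in 5 of 6, with a median of -18.5 points in the 6 and -10.9 in all windows, but KMT2D was 2.83 points higher with libraries centred. Groups did not overlap in 1 gene for called bases, 1 for inner bases and 2 for inner share, and in each case KDM5-C70 was the lower, as in 0.466, 2.13 and 12.4% of all windows. In the other direction no member separated, nor did more than 0.896% of windows for called bases, 0.0218% for inner bases and 0.197% for inner share.

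**Figure D4:**
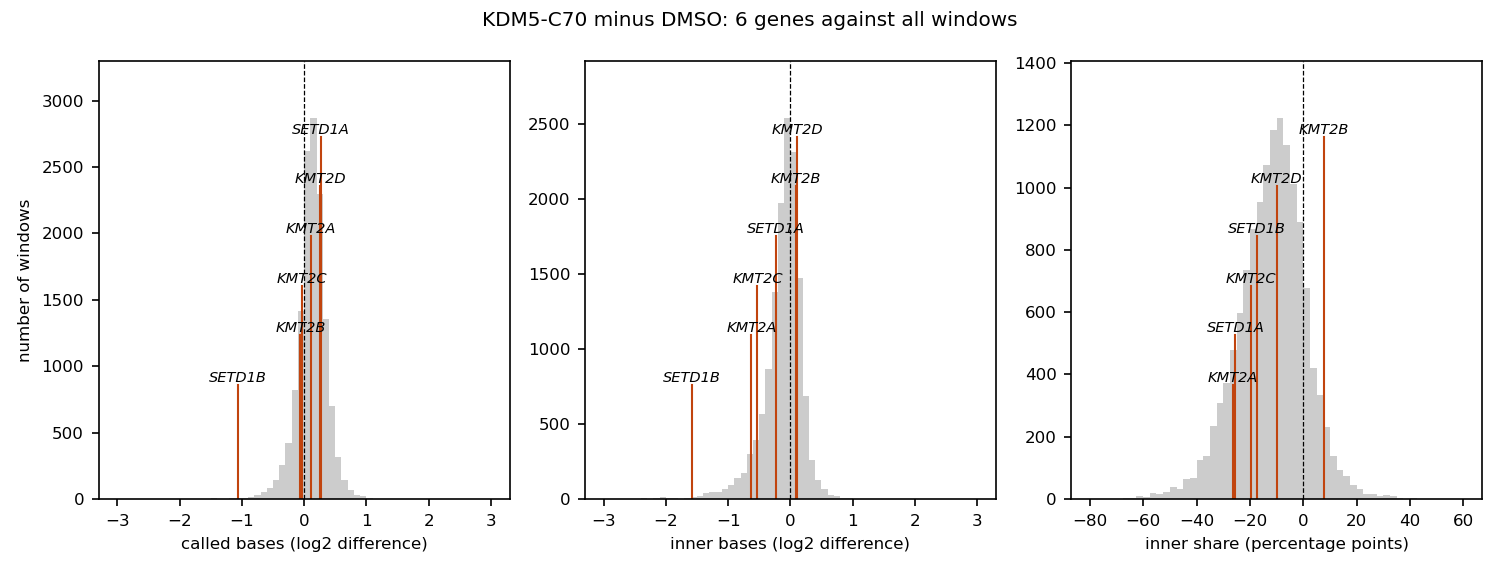
KDM5-C70 minus DMSO for the 6 genes (orange lines, whose heights only separate the labels) over the distribution of the same difference in all 13735 windows (grey bars, number of windows), for called bases and inner bases on the log2 scale and for inner share in percentage points. SETD1B lies at -1.07 and -1.58 in the first 2 panels, and KMT2B lies at 7.71 points in the third, against a median of -10.9 over all windows.

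The order of the genes by called bases also differed between the groups. Averaged over the 8 libraries, KMT2A had 3205 ± 678.6 bp, KMT2C 2717 ± 373.2 bp, KMT2B 2475 ± 457.7 bp, SETD1B 2342 ± 964.2 bp, SETD1A 1763 ± 337.8 bp and KMT2D 1408 ± 479.6 bp (SD, n = 8 each, all in windows of equal length). KMT2A exceeded KMT2C in 7 of 8 libraries, and KMT2C exceeded KMT2B in 7 of 8. SETD1B lay below SETD1A in all 3 KDM5-C70 libraries and above it in all 5 DMSO libraries. It lay below KMT2B in all 3 KDM5-C70 libraries and above it in all 5 DMSO libraries. These neighbours therefore have no order common to the 8 libraries. KMT2D is last in windows whose edge cuts its region, and the whole KMT2D region averaged 2525 bp in KDM5-C70 libraries and 2296 bp in DMSO libraries, above the SETD1A means of 1961 and 1644 bp in the same groups. By the profile of called bases over the 8 libraries, KMT2A and SETD1A were the most alike of the 15 pairs, with a mean absolute difference of 0.121 on the log2 scale after centring each gene. KMT2D and SETD1B were the least alike, at 0.636.

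The authors' q-values for these regions followed the lists as a whole. A region with a deposited -log10 q-value of at least 5 was present for 0, 1 and 0 of the 6 genes in KDM5-C70 libraries 1 to 3, the 1 being KMT2B. In DMSO libraries 1 to 5 it was present for 5, 3, 6, 5 and 5 of the 6. In the lists as a whole, 16.8, 21.9 and 9.65% of regions reached that value in KDM5-C70 libraries, against 64.3, 41.7, 61.5, 51.5 and 60.7% in DMSO libraries. Their part in the differences above was not tested.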

How the data were processed

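MM1S libraries were grouped by their titles into KDM5-C70 (n = 3) and DMSO (n = 5). MACS2 2.1.0, Bowtie 1.1.2, HOMER 4.8 and Trim Galore 0.40, with GRCh37 as the build, are named in the submitters' processing notes, without settings. Per library, the authors deposited 1 list of regions with inner blocks and a score for display. Each deposited region also has a fold ratio, a -log10 p-value and a -log10 q-value from the authors. Only positions, blocks and the q-value were used here. Regions on chromosomes 1 to 22 and X were read, blocks of 1 bp were left out, and regions overlapping by at least 1 bp were merged.

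Called and inner bases were summed per window and compared with limma 3.58.1 (R 4.3.3, variance trend, 2-sided, Benjamini-Hochberg at 0.05 over all windows) on log2 of bases plus 100 bp, which understates changes of low values, and on inner share in percent. Neighbouring windows overlap and are not independent. Intervals and limma were tested on simulated data. Sums and merging were done in Python 3.11.15 with pandas 2.3.3 and numpy 2.4.6, and plots with matplotlib 3.10.9. All 6 genes were named by rule. The members, windows and lists were chosen with earlier results of these data known. Strands are those of RefSeq, and SETD1B is taken as a plus-strand gene. Alternatives changed the added bases, window, merging, filter, list length, centring, set term, replicate block and libraries. Lists of equal length kept the widest regions of each list, as many as the shortest list held. Leaving out libraries in the set-term fit, and the settings for split regions, were chosen after seeing the data. Replicate numbers were not taken as a pairing. No counts were used, so depth and its precision are unknown.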

Additional observations from a re-analysis of the deposited data

Results flagged for a closer look

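In the 18 groups of DMSO values examined (3 measures for each of the 6 genes), 1 library stood apart from the others. KMT2B had 1615 called bases in DMSO 2, while the other 4 DMSO libraries had 2574 to 2880. Chance marks about 1 in 20 independent groups, but these 18 share libraries and linked measures, so their count cannot be set against that rate. DMSO 2, with the shortest list, was also the lowest DMSO library for called bases at KMT2A (1863), KMT2D (944), SETD1A (989) and SETD1B (1860). At KMT2C it was not (2322, against 2295 in DMSO 1). The cause was not tested. KDM5-C70 groups of 3 were not examined in this way.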

How the results depend on the processing

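Of 371 values of the 6 genes under other settings, 346 kept their direction and their side of the threshold, 21 turned and 4 passed it, all 4 for inner bases of SETD1B with the set of libraries as a term. Over every alternative that difference ranged from -1.965 to -0.882 (limma adjusted p 0.0351 to 1). Log2 differences turned as follows. With libraries centred, which moved the median of all windows for called bases to -0.016 and for inner share to 1.841 points, KMT2A called bases were -0.036, and with the set term as well -0.031. KMT2B inner bases were -0.286 with lists of equal length and -0.035 in a window of 2 kb. KMT2D inner bases were -0.049 both in a window of 10 kb and in the merged region. The KMT2D inner share was 2.830 points with libraries centred and 4.149 with the set term as well. The cause was not tested.

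Leaving out single libraries gave ranges of -0.057 to 0.205 (KMT2A), -0.207 to 0.081 (KMT2B) and -0.127 to 0.087 (KMT2C) for called bases. For inner bases they were -0.115 to 0.249 (KMT2B), -0.069 to 0.444 (KMT2D) and -0.404 to 0.095 (SETD1A), and -0.441 to 14.064 points for the KMT2B inner share. Windows passing for lower inner bases numbered 0 to 1 and for lower inner share 0 to 130. Regions split in KDM5-C70 libraries alone numbered 25 to 126, and in DMSO libraries alone 2 to 6.

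Windows passing the threshold, 0 in the fit of treatment alone, changed with other fits. With the set term, 195 had fewer inner bases and 187 a lower inner share. With the set term and centring, 4 had more and 22 fewer called bases, and 15 had more and 184 fewer inner bases. Centring alone gave 27 with fewer inner bases, and a fit without the variance trend gave 50 with a lower inner share.

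Whether replicate numbers pair the libraries could not be decided. Deviations of same-numbered libraries correlated at 0.407, -0.328 and 0.323, but the sign followed the sets, positive within them and negative between them. Region names of DMSO 3, 4 and 5 also carry the numbers 4, 5 and 6. With the replicate block, called bases were 0.046 at KMT2B and 0.067 at KMT2C, and 1 window had more and 9 had fewer called bases. The block changed no other call. Lists restricted to a -log10 q-value of at least 5 shared 10 regions across the 8 libraries, so that alternative was dropped. KMT2D had no called base within 2 kb. Depth is unknown, so what it limits could not be given.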
